A study of Mus musculus with 63 samples.

Results

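A set of 38 genes that act in the dividing cell was followed through mouse small intestinal tumours: 20 genes of S phase, the stretch of the cell cycle in which DNA is copied, and 18 genes of mitosis. They were chosen by name from the 24766 genes of the expression table, and all 38 passed a minimum mean value of 10. The S phase genes code for the MCM helicase that opens the double helix (*Mcm2* to *Mcm7*), the factors that load and start it (*Cdc6*, *Cdt1*, *Cdc45*, *Gins1* and *Gins2*), the machinery at the fork (*Pcna*, *Pola1*, *Pole*, *Rfc4* and *Fen1*), the enzymes that make the nucleotides (*Rrm1*, *Rrm2* and *Tyms*) and *Uhrf1*, which helps to copy DNA methylation onto the new strand. The mitosis genes code for the proliferation antigen Ki-67 (*Mki67*) and topoisomerase II alpha (*Top2a*), the mitotic kinase and its cyclins (*Cdk1*, *Ccna2*, *Ccnb1* and *Ccnb2*), checkpoint kinases (*Bub1* and *Bub1b*), the Aurora and Polo kinases with their partners (*Aurka*, *Aurkb*, *Birc5*, *Plk1* and *Tpx2*), parts of the ubiquitin pathway that ends mitosis (*Cdc20* and *Ube2c*), and motors and centromere proteins (*Kif11*, *Cenpe* and *Cenpf*).

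Transcripts of these genes come and go with the cell cycle. In G1 the retinoblastoma family holds E2F factors back from the S phase genes, and cyclin-dependent kinases release them. The mitosis genes follow later, when the MuvB complex joins with B-Myb and FoxM1 at promoters that carry a cell cycle homology region, or CHR, and often CCAAT boxes, which NF-Y binds. In the intestine, division is normally kept to the crypt, where WNT signals sustain it, and loss of *Apc* leaves WNT signalling switched on.

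Bulk RNA sequencing was made of 63 libraries from tumours of 2 mice, 1 female and 1 male, so that mouse and sex cannot be told apart. Both mice were Villin-creERT2;*Apc* fl/+;Rosa fl/Confetti animals over 8 weeks old, in which Cre acts in the intestinal epithelium alone, where it removes 1 *Apc* allele and switches on a Confetti colour in scattered cells, and both received 4 mg of tamoxifen by intraperitoneal injection and, 10 days later, the mutagen *N*-ethyl-*N*-nitrosourea (ENU) at 200 mg per kg. There was thus no group without ENU or without *Apc* loss. Each of 20 tumours of more than 1 colour, 10 per mouse, was dissected by colour into a major clone, the larger, and a minor clone, the smaller, which gave 20 major and 20 minor clone libraries. A further 23 tumours, 10 of the female and 13 of the male mouse, were sequenced undivided. The sample labels give each clone a letter only, and which clone is the major one was taken by library name from the study's source data. The labels do not say which of the undivided tumours the study counted as monoclonal, and all 23 are used here. Tumours came from the small intestinal segments named SI10, SI20 and SI30 in the labels, and only 2 tumours, both of the female mouse, came from SI30. Tumours are named below by mouse (F or M) and tumour number.

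Summed over genes, the libraries held 26140227 to 45909885 normalised counts, from an estimated 13125594 to 52033013 reads (by the value that 1 read is worth). No library was a copy of another: the highest correlation between any 2 was 0.975. All 9 epithelial markers were present, with a mean log2 level of 14.69 to 15.57 (major), 14.47 to 15.48 (minor) and 14.12 to 15.75 (undivided). The libraries also differed in composition. The share of the 18S ribosomal gene *Rn18s* in the sum had a median of 1.24% among major, 6.18% among minor and 3.12% among undivided libraries, and reached 13.1%, 15.6% and 19.4%, respectively. In bulk tissue, fewer dividing cells and less of a transcript in each dividing cell cannot be told apart. Tumours are separate samples but come from only 2 animals, so p-values measure the spread between tumours of these mice.

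The promoters of the 2 sets differed in the short words that they carry. RefSeq promoters (250 bases before the start site to 50 after it, mouse build GRCm38.p6) were matched for 16 of the 20 S phase genes and 15 of the 18 mitosis genes. An E2F word (TTTCCCGC, TTTCGCGC, TTTGCCGC or TTTGGCGC, on either strand) stood in 8 of the 16 S phase genes (50%) and in 1 of the 15 mitosis genes (6.67%), namely *Cdk1*, against 2.6% of all 27025 genes with a promoter. A CHR word (TTTGAA or TTCGAA, on either strand) stood in 4 S phase genes (25%) and 12 mitosis genes (80%), against 21.7% of all genes. A CCAAT box on either strand stood in 11 S phase genes (68.8%) and 14 mitosis genes (93.3%), against 41.1%. A match in letters is not evidence of binding, and none of these data measure it. Of the 4 promoters below, *Mcm5* carries 2 E2F words that overlap, at −153 and −149 from the start site, and 3 CCAAT boxes. *Pcna* carries a single CCAAT box on the other strand and no E2F word. *Ccnb1* carries 2 CCAAT boxes and no CHR word, and *Cdc20* a CHR word at −18 with a CCAAT box on each side. These are 2 S phase and 2 mitosis genes chosen by name. Capitals mark the words found.
Mcm5 (chr8:75109259-75109558, + strand): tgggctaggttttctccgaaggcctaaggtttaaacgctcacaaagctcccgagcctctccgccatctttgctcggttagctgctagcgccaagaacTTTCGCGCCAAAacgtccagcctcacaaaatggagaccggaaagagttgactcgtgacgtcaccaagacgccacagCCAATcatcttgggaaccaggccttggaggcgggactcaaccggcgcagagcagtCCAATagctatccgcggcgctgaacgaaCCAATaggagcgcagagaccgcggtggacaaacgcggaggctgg
Pcna (chr2:132253131-132253430, − strand): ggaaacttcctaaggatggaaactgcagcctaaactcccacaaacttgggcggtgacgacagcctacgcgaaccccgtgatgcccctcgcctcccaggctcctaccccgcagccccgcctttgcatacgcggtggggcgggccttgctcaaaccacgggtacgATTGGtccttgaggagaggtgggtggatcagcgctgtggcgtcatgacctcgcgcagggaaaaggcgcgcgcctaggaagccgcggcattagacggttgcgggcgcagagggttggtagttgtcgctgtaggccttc
Ccnb1 (chr13:100786437-100786736, − strand): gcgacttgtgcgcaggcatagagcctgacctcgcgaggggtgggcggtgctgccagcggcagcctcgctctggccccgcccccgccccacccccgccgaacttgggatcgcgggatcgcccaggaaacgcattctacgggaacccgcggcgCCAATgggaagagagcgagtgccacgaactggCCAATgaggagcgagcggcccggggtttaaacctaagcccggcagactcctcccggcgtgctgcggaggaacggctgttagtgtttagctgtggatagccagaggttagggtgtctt
Cdc20 (chr4:118437294-118437593, − strand): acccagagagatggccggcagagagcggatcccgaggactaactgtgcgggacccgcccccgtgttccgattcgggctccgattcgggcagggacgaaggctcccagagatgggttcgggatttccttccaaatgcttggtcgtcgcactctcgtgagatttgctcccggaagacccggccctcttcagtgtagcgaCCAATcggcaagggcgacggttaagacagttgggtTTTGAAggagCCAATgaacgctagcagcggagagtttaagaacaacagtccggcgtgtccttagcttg

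All 38 genes were expressed in every library, at levels that differed widely between genes. Per kilobase of transcript, the median over the 63 libraries was highest for *Pcna*, the sliding clamp of the polymerases, at 3516 normalised counts per kb. *Ube2c*, the ubiquitin-conjugating enzyme of the anaphase promoting complex, followed at 1527 and *Birc5* (survivin) at 989. Among the helicase genes, *Mcm7* and *Mcm6* stood at 864 and 833 per kb, ahead of *Mcm2* at 586, *Mcm5* at 447, *Mcm3* at 357 and *Mcm4* at 356 (357 and 356 differ by far less than the spread between libraries). The nucleotide enzymes *Rrm1*, *Rrm2* and *Tyms* stood at 691, 603 and 369 per kb. The loading factor *Cdc6* at 71.3, the kinetochore motor *Cenpe* at 60.3 and the centromere protein *Cenpf* at 45.0 per kb had the lowest levels. The spread between libraries also depended on the gene. *Pcna* was the steadiest, with 2.33 times as much in the highest library as in the lowest, while the same ratio was 12.0 for *Cenpf*, 10.8 for *Mki67*, 9.39 for *Cenpe* and 8.45 for *Pole*, the catalytic subunit of polymerase epsilon.

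Across the 23 undivided tumours, with the mean of each mouse removed, the genes moved together. The median Pearson r was 0.661 for pairs of S phase genes (−0.0243 to 0.952, 190 pairs), 0.779 for pairs of mitosis genes (0.196 to 0.969, 153 pairs) and 0.691 for pairs of 1 S phase and 1 mitosis gene (360 pairs), against −0.00126 among 2000 genes drawn from all tested. The S phase and mitosis sets were therefore not separated from each other by tumour. These correlations describe the libraries and share their normalisation. The closest pair was *Aurka* with *Aurkb*, the Aurora kinases of spindle poles and centromeres, at 0.969, followed by *Plk1* (Polo-like kinase 1) with *Tpx2*, the activator of Aurora A, at 0.96. Some members stood apart. The mean r of *Rrm2*, the regulated subunit of ribonucleotide reductase, was 0.354 with the S phase genes and 0.392 with the mitosis genes, and that of *Pcna* was 0.435 and 0.397. *Cenpf* followed the S phase genes at 0.284 only. The lowest value of any pair was −0.109, for *Cenpf* with *Gins2*, and that of *Mki67* with *Pcna*, both in common use as marks of dividing cells, was −0.047.

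Whether the clone that grew larger held more of these transcripts was asked within tumours, with major and minor clone paired. The data gave no call for any member between the clones. No S phase and no mitosis gene passed the threshold (limma on log2(value + 1), Benjamini-Hochberg over 16428 genes), whereas 188 genes, or 1.14%, did so in all, 110 of them higher in major clones. At an unadjusted p under 0.05 stood 2 S phase and 0 mitosis genes, against 22.4% of all genes tested. The estimates were above 0 for 15 of 20 S phase genes (median log2 difference 0.07) and for 17 of 18 mitosis genes (median 0.09), against a median of 0.01 over all genes. With libraries scaled to the same sum without *Rn18s*, which moved the median of all genes to −0.05, these counts were 11 and 12 (medians 0.01 and 0.03).

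Those small positive medians rested on few tumours. The mean level of the 18 mitosis genes was higher in the major clone in only 9 of 20 tumours (mean difference 0.10 ± 0.52 on the log2 scale, SD, n = 20), and that of the 20 S phase genes in 10 of 20 (0.05 ± 0.40). In 6 tumours at least 30 of the 38 members were higher in the major clone, with all 38 in F23 and F29, 37 in F24, M28 and M29, and 32 in M31. In 7 tumours at most 8 of them were, with 0 in M19, 2 in F30, 4 in F22, 6 in M25 and 8 in F20, M20 and M26. The other 7 tumours lay between. In such tumours most of the set was higher on 1 side, in the major clone of some and in the minor clone of others. Without M28, the mitosis genes above 0 numbered 12 of 18 (median 0.03), and without F23 also 12 (median 0.04). Other leave-outs went the other way, with 18 of 18 without F22 (median 0.115) or M20 (median 0.0919), and 17 without M19 (median 0.124). Minor clones spread more widely than major clones, with an SD of 0.55 against 0.33 in the mitosis mean and 0.40 against 0.32 in the S phase mean. That difference in spread was not tested.

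**Figure D1:**
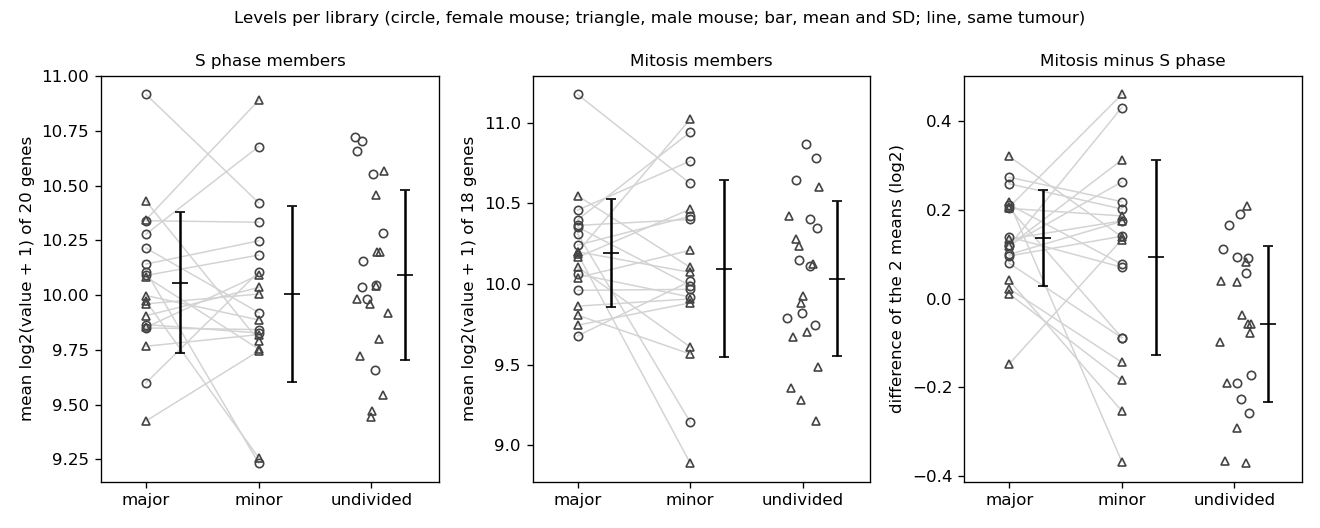
Mean log2(value + 1) of the 20 S phase genes (left) and the 18 mitosis genes (middle) in each library, and the mitosis mean minus the S phase mean (right), by class on the x axis. Circles are libraries of the female and triangles of the male mouse, lines join the clones of 1 tumour, and bars give the mean and SD. Lines cross in both directions between major and minor clones, and the right panel has a mean of 0.14 (major), 0.09 (minor) and −0.06 (undivided).

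*Rrm2* and *Gins1* were the members with unadjusted p under 0.05, in opposite directions. *Rrm2* ran from 864 to 2318 normalised counts in major clones (median 1662) and from 712 to 2784 in minor clones (median 1318). It was higher in the major clone in 13 of 20 tumours, by 0.26 on the log2 scale (95% confidence interval 0.04 to 0.48, limma p = 0.0206, adjusted p = 0.144). *Gins1*, a part of the GINS complex that completes the active helicase, ran from 99.8 to 515 in major clones (median 195) and from 139 to 586 in minor clones (median 232). It was higher in the major clone in only 5 of 20 tumours, with a log2 difference of −0.26 (−0.48 to −0.04, limma adjusted p = 0.158). For both genes the ranges of the clones overlapped almost wholly. *Mcm3* had the next smallest p, 0.18 log2 higher in major clones (−0.04 to 0.40, limma adjusted p = 0.323).

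Among the mitosis genes the smallest p belonged to *Bub1b* (BubR1, of the spindle checkpoint), *Ccnb2* (cyclin B2) and *Plk1*. Their log2 differences were 0.23, 0.10 and 0.17, with limma adjusted p of 0.332, 0.39 and 0.41. *Mki67* had medians of 3114 in major and 2083 in minor clones, but the ranges were 1153 to 6406 and 683 to 7385. Its paired difference of 0.16 had an interval of −0.25 to 0.58 (limma adjusted p = 0.663), and single tumours ran from −1.47 in M19 to 2.41 in M28. The mean difference of *Mki67* was −0.12 in the female and 0.45 in the male mouse. *Pcna* was measured far more closely: its medians were 5111 and 5101, and its difference was 0.05 (−0.06 to 0.15, limma adjusted p = 0.64). Its mean difference also changed sign between the mice, at 0.13 in the female and −0.04 in the male.

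The clone difference was also compared between mice and between segments. Between mice, 0 of 38 members passed (limma, 0 of 16428 genes) and 0 had an unadjusted p under 0.05, against 7.65% of all genes. In the tumours with both clones in SI20, the medians were 0.20 for S phase and 0.18 for mitosis genes, with 8 and 1 members at an unadjusted p under 0.05, against 17.8% of all genes in that fit, and 0 past the limma threshold. In SI10 the medians were −0.01 and 0.02. The test of that difference found 0 members past the threshold and 0 at an unadjusted p under 0.05, against 4.06% of all genes, although the estimate lay below 0, lower in SI10, for all 38.

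Other genes of the pathway were tested between the same clones. Of 48 other replication genes, 0 passed (limma) and 8 had an unadjusted p under 0.05, against 22.4% of all genes. Of these 8, 7 were lower in major clones. Among all 48 estimates 29 lay below 0, with a median of −0.04. Of 52 other mitosis genes, 0 passed and 0 had an unadjusted p under 0.05, with 39 estimates above 0 and a median of 0.05. Of 16 factors that govern the cell cycle genes, *Rb1*, the retinoblastoma gene that restrains E2F, was higher in major clones by 0.30 (SE 0.07, limma adjusted p = 0.0417). *Rb1* was not followed through the alternative fits, and in the female mouse alone 0 of 16402 genes passed. Markers of other cells moved between the same libraries: all 9 enterocyte markers (1 past the threshold), all 7 goblet (1), all 7 enteroendocrine (1), all 7 muscle (0), 8 of 9 fibroblast (0) and all 11 immune markers tested (0) had estimates above 0 in major clones. So had all 9 epithelial markers, but only 5 of 7 Paneth, 6 of 8 endothelial, 3 of 5 tested tuft and 4 of 8 stem cell markers, with 0 past the threshold. The mean log2 level of the enterocyte list, for instance, ran from 12.99 to 16.33 in major and from 12.21 to 15.60 in minor clones. The part of cell composition in the members' values was not tested.

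Undivided tumours were set against major and against minor clones, with mouse as a covariate. Both comparisons use the same 23 undivided tumours and are given side by side. Against major clones, 0 members passed the threshold, as did only 2 of 16510 genes (limma, 0.0121%). At an unadjusted p under 0.05 stood 0 S phase genes and 2 mitosis genes, against 12.0% of all genes. The S phase estimates were spread around 0, with 11 of 20 above it (median 0.02), while 17 of 18 mitosis estimates were below it (median −0.11). In the female mouse alone 19 of 20 S phase genes (median 0.14) and 9 of 18 mitosis genes were above 0. In the male mouse alone 7 of 20 S phase genes (median −0.04) and 1 of 18 mitosis genes were. With segment as a further covariate and SI30 left out, 19 of 20 S phase genes (median 0.11) and 8 of 18 mitosis genes were above 0.

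Against minor clones, *Rrm2* was the 1 member that passed, among 610 genes or 3.70% of 16491 tested. The S phase estimates were above 0 for 18 of 20 genes (median 0.10) and the mitosis estimates for 6 of 18 (median −0.02), with 1 and 0 at an unadjusted p under 0.05 (19.6% of all genes), but after scaling to the same sum without *Rn18s*, which moved the median of all genes to −0.12, these counts were 9 and 0. By mouse the counts were 20 and 14 in the female, and 10 and 1 in the male. With mouse and segment as covariates and SI30 left out they were 20 and 14 (medians 0.16 and 0.06). The mitosis count also moved with single libraries, to 13 without minor clone M19, 11 without undivided tumour M5, 10 without minor clone F30 or undivided tumour M17, 3 without minor clone M28 and 2 without minor clone F23.

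**Figure D2:**
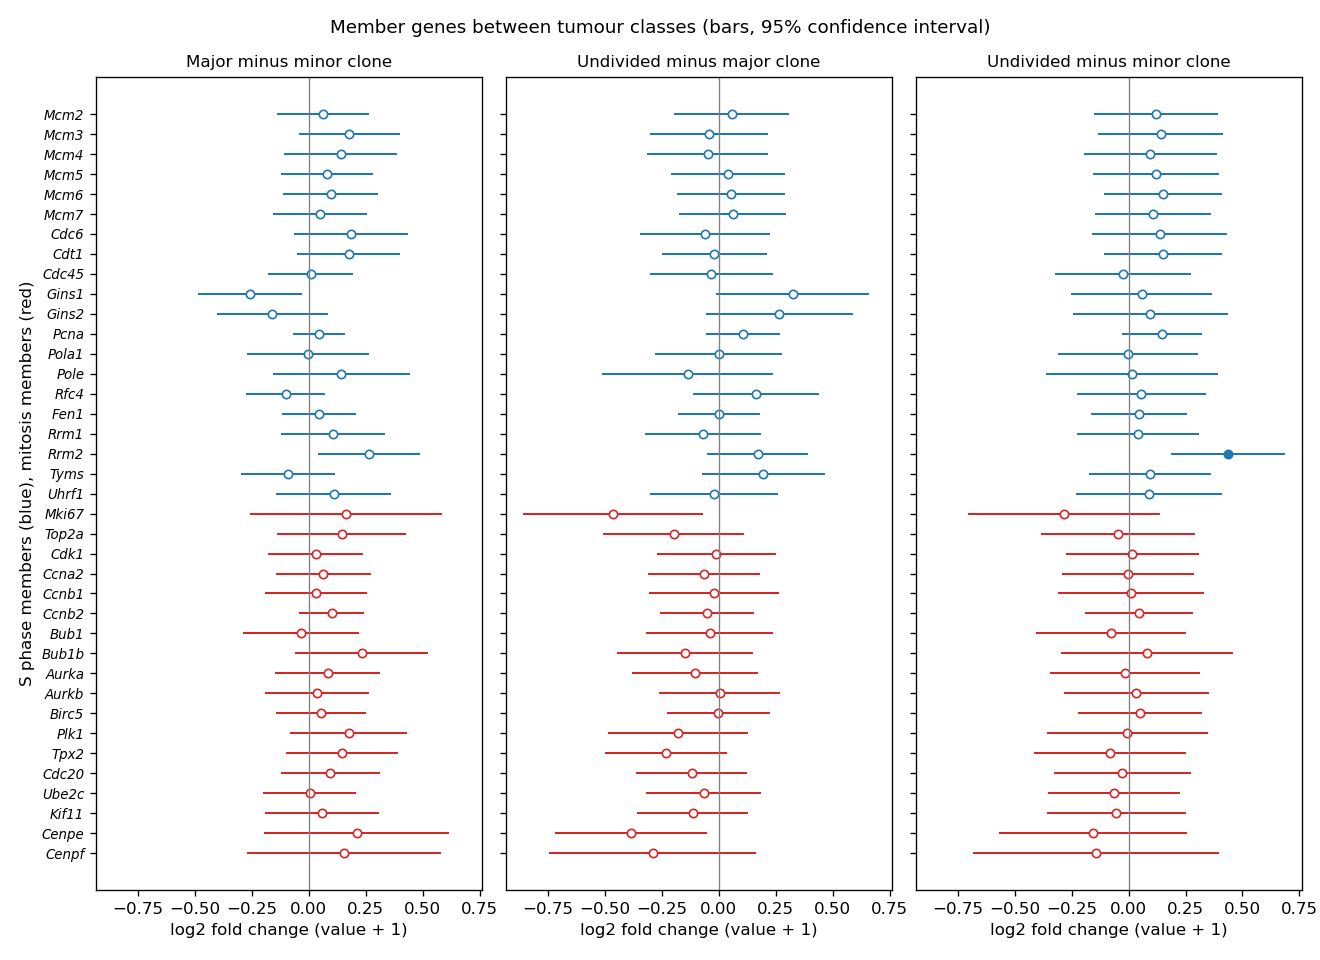
Log2 fold change of each of the 38 members (rows, S phase in blue and mitosis in red) between the 3 classes of library, on the log2(value + 1) scale, with 95% confidence intervals from limma as bars. A filled point marks an adjusted p under 0.05. The only filled point is *Rrm2* at 0.44 in undivided tumours against minor clones, and *Mki67* has the lowest estimate of all, −0.46 in undivided tumours against major clones.

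*Rrm2* provides the limiting subunit of the enzyme that makes deoxynucleotides. Its values ran from 840 to 3470 in undivided tumours with a median of 1582, beside the medians of 1318 in minor and 1662 in major clones. Of the 23 undivided tumours, 20 lay above the median of the minor clones. *Rrm2* rose by 0.44 on the log2 scale in undivided tumours against minor clones (SE 0.12, 95% confidence interval 0.19 to 0.68, limma adjusted p = 0.0364), although the ranges overlapped. Within the female mouse the medians were 2228 and 1764 (log2 difference 0.40, limma adjusted p = 0.572), and within the male mouse 1542 and 1056 (0.47, limma adjusted p = 0.0711). The size held in each mouse, and the call did not. The call was also lost with scaling to the same sum (0.33, limma adjusted p = 0.0891) and when any 1 of 8 libraries was left out, minor clones M26, F26, M28, M29 and M27 and undivided tumours M5, M2 and F5, with limma adjusted p of 0.0506 to 0.0615. It held without any of the other 35. Against major clones *Rrm2* was 0.17 higher (−0.05 to 0.39, limma adjusted p = 0.504).

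*Mki67* had the largest difference of any member between undivided tumours and major clones. It ran from 808 to 3595 with a median of 2059 in undivided tumours, and only 3 of 23 lay above the major clone median of 3114. The log2 difference was −0.46 (−0.86 to −0.07, limma p = 0.0217, adjusted p = 0.361). *Cenpe* came second, with a median of 414 against 567, 4 of 23 above the latter, and a log2 difference of −0.38 (−0.71 to −0.06, limma adjusted p = 0.362). *Tpx2* followed with −0.23 (limma adjusted p = 0.46). Against minor clones the same 23 tumours gave −0.28 for *Mki67* (limma adjusted p = 0.483), −0.16 for *Cenpe* (0.73) and −0.14 for *Cenpf* (0.829). None of these differences passed the threshold.

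On the S phase side, the other members with the smallest p against major clones were *Gins1* and *Gins2*. *Gins1* had a median of 249 in undivided tumours and 195 in major clones, a log2 difference of 0.32 (−0.01 to 0.66, limma adjusted p = 0.427). *Gins2* had 490 and 397, a difference of 0.27 (−0.05 to 0.58, limma adjusted p = 0.479). Against minor clones *Gins1* differed by 0.06 and *Gins2* by 0.10. *Pcna*, with a median of 5644 in undivided tumours, was 0.11 above major clones (−0.05 to 0.26, limma adjusted p = 0.567) and 0.15 above minor clones (−0.02 to 0.32, limma adjusted p = 0.338), and *Mcm6* was 0.15 above minor clones (limma adjusted p = 0.547). The helicase genes as a group stayed close to 0 against major clones, from −0.05 for *Mcm4* to 0.06 for *Mcm7*.

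Other genes of the pathway were tested in the same fits. Among 48 other replication genes, *Pold3*, a subunit of polymerase delta, fell by 0.54 in undivided tumours against minor clones (SE 0.11, limma adjusted p = 0.00985). *Pold3* was not followed through the alternative fits, and in the female mouse alone 0 of 16372 genes passed. The 52 other mitosis genes and the 16 factors gave 0 calls against minor clones. At an unadjusted p under 0.05 stood 0 and 1 of them, against 19.6% of all genes. All 3 lists gave 0 against major clones, where 7, 2 and 2 had an unadjusted p under 0.05, against 12.0% of all genes. Markers of fibroblasts were lower in undivided tumours than in major clones in 9 of 9 (median −0.79, 6 at an unadjusted p under 0.05, 0 past the threshold), with list means of 6.03 to 10.27 and 7.51 to 10.74. All 7 enteroendocrine markers were higher than in minor clones, 4 past the threshold. Their part in the members' values was not tested.

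The S phase and mitosis sets were then set against each other within each library, which cancels any scaling factor. The mitosis mean minus the S phase mean was 0.14 ± 0.11 (SD, n = 20) on the log2 scale in major clones, 0.09 ± 0.22 (n = 20) in minor clones and −0.06 ± 0.18 (n = 23) in undivided tumours. Undivided tumours thus held less mitosis relative to S phase transcript than major clones by 0.19, which is more than the SD of either class, and less than minor clones by 0.15, which is less than the SD of either. No p is given, since the genes were picked with results of these data known. The order of the means held in each mouse, at 0.16, 0.14 and −0.01 in the female and 0.11, 0.05 and −0.09 in the male. It held in SI10 and SI20 too, at 0.06, 0.00 and −0.12 in SI10 and 0.17, 0.14 and 0.01 in SI20. SI30 had no undivided tumours, and its means were 0.19 in major and 0.23 in minor clones (n = 2 each). Between paired clones the difference was 0.04 ± 0.22, higher in the major clone in 12 of 20 tumours, and with the MCM genes alone as the S phase set it was −0.0038.

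**Figure D3:**
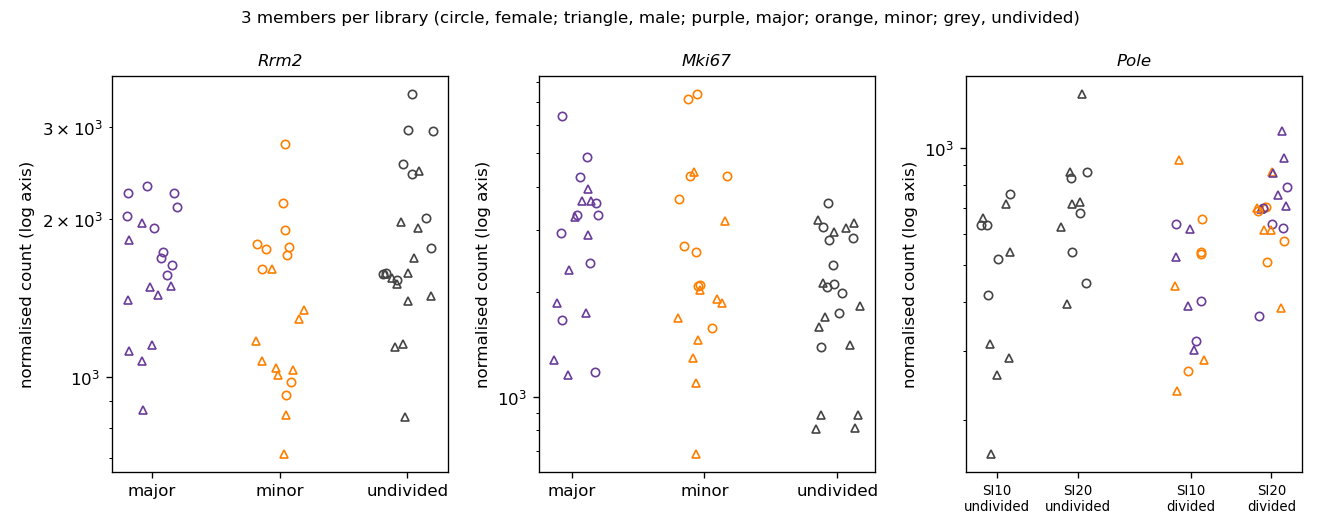
Normalised counts (log axis) of *Rrm2* and *Mki67* by class and of *Pole* by segment and class, 1 point for each library. Circles are the female and triangles the male mouse, with purple for major clones, orange for minor clones and grey for undivided tumours. *Rrm2* has a lower median in the male than in the female mouse in every class, *Mki67* has 20 of 23 undivided tumours below the major clone median of 3114, and *Pole* is at 368.5 or more in every SI20 library but reaches 162.7 in SI10.

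Position along the intestine was compared first among undivided tumours, 12 of SI10 against 11 of SI20, with mouse as a covariate. The SI10 tumours had lower estimates for nearly the whole set. No member passed the threshold, which 28 of 16511 genes did (limma, 0.170%), but 18 of 20 S phase genes (median −0.24) and 18 of 18 mitosis genes (median −0.36) were below 0, against a median of 0.00 over all genes. At an unadjusted p under 0.05 stood 3 S phase and 7 mitosis genes, all lower in SI10, against 7.62% of all genes. The direction held in each mouse, with 3 S phase genes and 1 mitosis gene above 0 in the female and 3 and 0 in the male. The other genes of mitosis went the same way, 51 of 52 below 0 and 16 at an unadjusted p under 0.05, and of the 48 other replication genes 36 were below 0. Markers of other cells moved between the same tumours, none past the threshold. All 7 enteroendocrine markers were higher in SI10 (median 0.87, 5 at an unadjusted p under 0.05), and the mean log2 level of that list ran from 7.08 to 9.88 in SI10 and from 7.33 to 8.75 in SI20. All 7 Paneth cell (median −0.59), 8 of 9 fibroblast (median −0.85) and 7 of 8 endothelial markers (median −0.59) were lower in SI10. Their list means ran from 10.5 to 14.3, 6.03 to 10.2 and 5.43 to 8.78 in SI10, and from 12.3 to 14.1, 7.95 to 10.3 and 6.09 to 9.02 in SI20. Their part in the members' values was not tested.

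*Tpx2* had the smallest p of the mitosis genes in this comparison. It ran from 504 to 1845 in SI10 (median 950) and from 853 to 2233 in SI20 (median 1283), a log2 difference of −0.51 (−0.89 to −0.13, limma adjusted p = 0.515). *Ccna2* (cyclin A2) and *Top2a* had −0.37 and −0.48 (limma adjusted p = 0.601 and 0.602). *Pole* led the S phase genes: 163 to 762 in SI10 (median 528) and 397 to 1374 in SI20 (median 715), a difference of −0.63 (−1.12 to −0.13, limma adjusted p = 0.565). *Rrm1* and *Mcm3* both had −0.37 (limma adjusted p = 0.598 and 0.613). *Mki67* differed by −0.39 (limma adjusted p = 0.72), whereas *Pcna* was level at −0.03 (−0.28 to 0.23, limma adjusted p = 0.968).

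The divided tumours gave a second set for the same question, 7 tumours of SI10 and 10 of SI20, with the mean of both clones as 1 value per tumour. *Pole* was the 1 member that passed, among 46 of 16436 genes (limma, 0.280%). Its tumour values ran from 292 to 603 in SI10 (median 414) and from 562 to 822 in SI20 (median 697), with 2 SI20 tumours inside the SI10 range and 1 SI10 tumour inside the SI20 range. *Pole* fell by 0.68 on the log2 scale in SI10 (SE 0.13, 95% confidence interval −0.95 to −0.40, limma p = 6.42e-05, adjusted p = 0.0302). By mouse the difference was −0.54 in the female and −0.77 in the male (limma adjusted p = 0.662 and 0.224). The call held in major clones alone (−0.81, limma adjusted p = 0.0492) and was lost in minor clones alone (−0.54, limma adjusted p = 0.551). Leaving out any of the tumours F19, F20, F27, F28, M22, M25, M26, M27, M28 and M29 also ended it, with limma adjusted p of 0.0539 to 0.094 and differences of −0.73 to −0.64. In undivided tumours the difference in *Pole* was −0.17 in the female and −0.98 in the male mouse.

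The estimates of the rest of the set in divided tumours depended on the fit and on single tumours. Of 20 S phase genes 15 had estimates above 0 (median 0.08) and of 18 mitosis genes 9 did (median −0.0017). At an unadjusted p under 0.05 stood *Pole*, *Mki67* (−0.49, −0.88 to −0.11, limma adjusted p = 0.27) and *Cenpe* (−0.39, limma adjusted p = 0.291), all lower in SI10, against 14.3% of all genes. *Mki67* had tumour medians of 1858 in SI10 and 2822 in SI20. *Tyms* was 0.28 and *Rrm2* 0.22 higher in SI10 (limma adjusted p = 0.418 and 0.391), *Top2a* had −0.18 (0.512) and *Pcna* 0.08 (0.723). The mice went opposite ways: in the female 1 S phase and 0 mitosis genes had estimates above 0, and in the male 19 and 14. With the length slope of each library as a covariate, described below, 5 S phase and 0 mitosis genes were above 0 (medians −0.05 and −0.20). Without M19, the tumour whose minor clone had the highest S phase mean of all minor clones, 5 S phase and 0 mitosis genes were above 0. The mitosis count was 2 without M25 or M28, 3 without M23, 4 without F20 and 5 without F26. Major clones alone gave 8 and 2, and minor clones alone 19 and 14.

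The members that recur at the low end, *Mki67*, *Cenpe*, *Cenpf* and *Pole*, are also the longest transcripts of the set, at 10.3, 7.91, 11.2 and 8.11 kb, and this was noticed after the values were seen. For each library the slope of log2 level, centred on the gene's mean, was therefore taken on log2 transcript length over the genes that are not members. The mean slope was 0.02 for major, 0.00 for minor and −0.02 for undivided libraries, and −0.04 in undivided SI10 tumours against 0.00 in SI20. Across members, the log2 difference of undivided tumours against major clones had a Pearson r of −0.558 with log2 length, against −0.156 over all genes, and that of SI10 against SI20 in divided tumours −0.606 against −0.178. These are correlations across genes, which are not replicates.

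Each member was then set against the length slope with the mean of each mouse left in, so that r over both mice includes their difference. The mean slope of undivided tumours was 0.02 in the female and −0.05 in the male mouse. Over the 23 undivided tumours, *Mki67* tracked the length slope (Pearson r = 0.741, permutation p = 4e-05, adjusted p = 0.00152 over 38 members, Spearman rho = 0.658, permutation p = 0.00093). Without the 2 tumours farthest from the median slope r was 0.635, and by mouse it was 0.415 in the female and 0.826 in the male. *Pcna*, a short transcript of 1.52 kb, went the other way (r = −0.596, permutation adjusted p = 0.0342, rho = −0.527, permutation adjusted p = 0.102), with −0.54 without the 2 farthest, −0.777 in the female and −0.425 in the male. *Bub1b* (r = 0.598, rho = 0.552) and *Pola1* (r = 0.576, rho = 0.458) also passed, with permutation adjusted p of 0.0342 and 0.035 for r and of 0.0916 and 0.147 for rho. Without the 2 farthest tumours their r was 0.505 and 0.406, and in the female mouse alone it was 0.151 and −0.0367, so the relation of these 2 rests on the male mouse. No other member passed.

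With the length slope as a covariate, a fit chosen after the values were seen, *Pole* in SI10 against SI20 divided tumours kept its size at −0.68 but not its call (limma adjusted p = 0.101), and *Rrm2* in undivided tumours against minor clones had 0.41 (limma adjusted p = 0.0476). In the paired clones the estimates above 0 went from 15 to 9 of 20 S phase genes and from 17 to 8 of 18 mitosis genes. Against major clones all 18 mitosis genes of undivided tumours were then below 0 (median −0.10). The S phase and mitosis sets have nearly equal median lengths, 3273 and 3310 bases. Of the 4 longest members, however, *Cenpf*, *Mki67* and *Cenpe* are mitosis genes and only *Pole* is an S phase gene. Within the sets, the log2 difference of undivided tumours against major clones had a Pearson r with log2 length of −0.752 (mitosis) and −0.67 (S phase). Without these 4 members the mitosis mean minus the S phase mean was 0.15 lower in undivided tumours than in major clones and 0.12 lower than in minor clones. The relation of this contrast to the length slope was not tested.

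**Figure D4:**
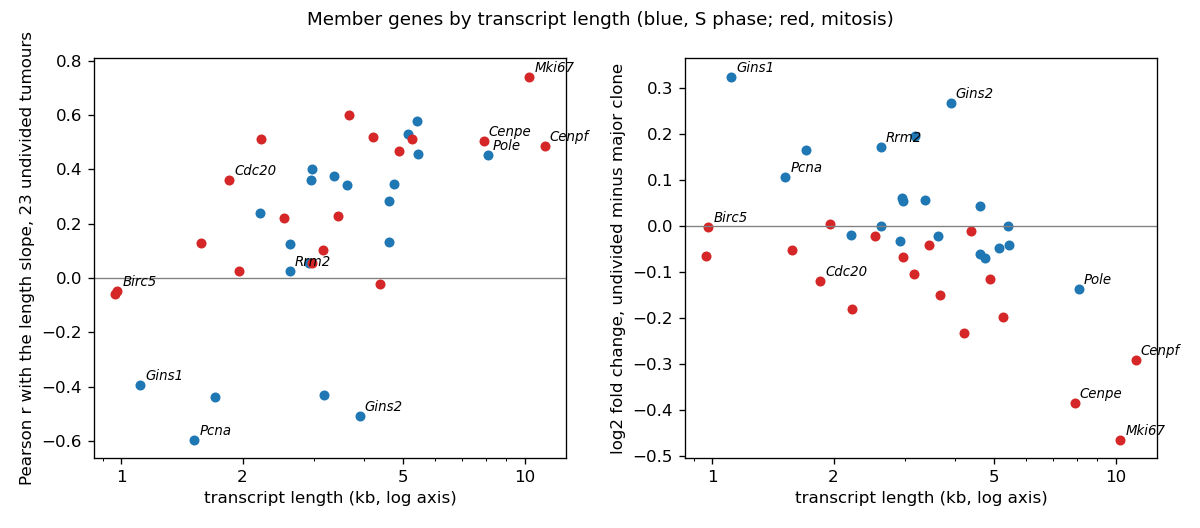
Transcript length of each member (x axis, log scale in kb) against its Pearson r with the length slope over 23 undivided tumours (left) and its log2 fold change of undivided tumours against major clones (right), with S phase genes in blue and mitosis genes in red. *Mki67* at 10.3 kb has the highest r, 0.741, and the lowest fold change, −0.46, and *Pcna* at 1.52 kb the lowest r, −0.596.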

How the data were processed

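RNA of 63 tumour libraries was sequenced from polyadenylated RNA with a stranded kit (Illumina Stranded mRNA Prep). The deposited table holds a signal per gene and library, named normalised counts by the authors. According to the submitters' processing notes and the study's methods, reads were trimmed (Trimmomatic 0.39) and quantified by Salmon 1.9.0 against Gencode M30 on GRCm39, with FastQC 0.11.9, STAR 2.7.7a and Picard 2.27.3 for quality control, and DESeq2 was used. How the values were scaled is not given in the sources used here beyond that. They are not whole numbers and no read counts were recovered, so no count model was run. Depth was estimated from the commonest low value (log2 density, bandwidth 0.05, values up to 16). It gives no interval for a single value, and errors are those between tumours.

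Each comparison kept genes whose mean reached 10 in its own libraries and fitted log2(value + 1), which understates the change of low genes, by limma 3.58.1 (R 4.3.3, eBayes with a trend), with Benjamini-Hochberg adjustment over all genes tested and a threshold of 0.05. The paired clone fit had tumour as its block and the others, except that between mice, had mouse as a covariate. The clones of a tumour are paired by the tumour number in the labels. With class means removed, 17 of 20 pairs correlated above 0.1 across genes (median 0.265, range 0.0282 to 0.62). Levels per kb divide by the length of 1 transcript per gene. Relations with the length slope used 100000 permutations over both mice together, two-sided. Scripts were checked on simulated data. The 38 members and all other lists were chosen with earlier results of these data known. Values are given for the 3 S phase and 3 mitosis members with the smallest p in each comparison, for *Mki67* and *Pcna*, and for listed genes past the threshold. The result of 1 listed gene is not reported here. Others that are named were picked after their values were seen. Alternatives were another pseudocount, filter, scaling and normalisation, each mouse and segment, no pairing, a signed-rank test, and leaving out each tumour or library. The leave-outs covered the paired clones, undivided tumours against minor clones, and segments of divided tumours only. The length slope fits, the leave-outs of divided tumours between segments and the fit without the 4 longest members were added after the data were seen. Promoters are from RefSeq on GRCm38.p6, a build other than that of the table, and no coordinates were carried between them.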

Additional observations from a re-analysis of the deposited data

Results flagged for a closer look

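In groups of 10 libraries of 1 class and mouse, a library was picked out where its distance to the nearest other library, divided by the range of the group, was above Dixon's 95% critical value, which chance alone passes in about 1 of 20 groups. Of 205 groups of values examined, 23 (11.2%) had such a library, and since members move together in a tumour they are not 23 separate events. They fell on 4 libraries.

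The major clone of F29, from SI30, was the highest of the female major clones for several genes that act from S phase entry to mitosis. The ratio was 0.662 for *Fen1* (1900 normalised counts), 0.629 for *Cdt1* (2027), 0.58 for *Aurkb* (1944), 0.531 for *Aurka* (1396), 0.521 for *Cdc20* (2238), 0.519 for *Tpx2* (2613), 0.517 for *Pola1* (1125), 0.503 for *Ccna2* (4339) and 0.469 for *Tyms* (1748). For the mean of the 18 mitosis genes it was 0.479, at a log2 level of 11.18. In this library *Rn18s* took 13.1% of the normalised counts, the highest share of any major clone, and its part in these values was not tested.

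The minor clone of F23 was the lowest of the female minor clones, with ratios of 0.55 for *Gins2* (150 normalised counts), 0.541 for *Pole* (266), 0.5 for *Ccna2* (974), 0.495 for *Rfc4* (197), 0.487 for *Tyms* (548) and 0.484 for *Birc5* (432). This is the tumour in which all 38 members were higher in the major clone. *Rn18s* took 1.35% of the normalised counts in its minor clone.

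The minor clone of M19 was the highest of the male minor clones, with ratios of 0.602 for *Mcm6* (4906 normalised counts), 0.526 for *Fen1* (1941), 0.516 for *Pcna* (8097), 0.493 for *Cdt1* (1691) and 0.476 for *Ube2c* (3564), and 0.489 for the mean of the 20 S phase genes (log2 level 10.89). In this tumour 0 of 38 members were higher in the major clone. *Rn18s* took 14.2% of the normalised counts in this minor clone. Its mean log2 levels of goblet (10.7), enteroendocrine (5.62), tuft (5.15), immune (5.50), fibroblast (7.05) and endothelial markers (6.23) were the lowest of the 20 minor clones. The part of these in the members' values was not tested. Its major clone, with *Rn18s* at 8.96% and the lowest length slope of all major clones (−0.23), was the highest of the male major clones for *Gins2*, with a ratio of 0.486 (886 normalised counts).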

How the results depend on the processing

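Between major and minor clones and between undivided tumours and major clones, 0 members passed under every alternative run, and likewise between SI10 and SI20 undivided tumours. Leaving out single libraries was not run for undivided tumours against major clones, nor for SI10 against SI20 undivided tumours. Without the pairing by tumour (no replicate block), 0 members and 0 of 16428 genes passed between the clones, against 0 members and 188 genes with it. Across the alternatives for the clones, all genes called numbered 0 in the female mouse, 33 in the male, 0 in SI10, 1 in SI20, 48 with a signed-rank test, 85 without a filter, 366 with quantile normalisation, 601 with the same sum and 836 with the length slope, and 25 to 859 when a tumour was left out. The single call against minor clones (*Rrm2*) went to 0 with scaling to the same sum, in the female mouse and in the male mouse, and the single call between segments of divided tumours (*Pole*) to 0 in the female mouse, in the male mouse, in minor clones alone and with the length slope. Leaving out 1 library or tumour gave 0 to 1 in both. No alternative reversed a call. The mitosis mean minus the S phase mean stayed at −0.196 to −0.154 for undivided tumours against major clones, −0.162 to −0.122 against minor clones and −0.0038 to 0.045 for major against minor clones.

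Limits are the 2 mice, the values scaled before deposit, and depth known only as an estimate. The median standard error of a member was 0.107 (log2) between paired clones, and 0.179 between segments of undivided tumours. SI30 was covered by the female mouse alone, and undivided tumours were not separated by clonality.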

Other observations

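The 2 tumours of SI30, both of the female mouse, entered no comparison between segments. The mean log2 level of the mitosis genes was 10.40 and 11.18 in the major clones and 10.62 and 10.94 in the minor clones, beside medians of 10.33 over the 10 major and 10.21 over the 10 minor clones of the female mouse. *Mki67* was at 3312 and 6406 normalised counts in the major clones and at 2598 and 7130 in the minor clones. In F29 the major clone was the higher for all 38 members, and in F30 the minor clone was for all but 2.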
